A study of Homo sapiens and Mus musculus with 12 samples.

Results

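DNA replication and nucleotide synthesis genes were followed across polysome profiling libraries of melanoma cells. They form a list of 43 genes, which holds the proteins that license, unwind and copy DNA and the enzymes that make deoxynucleotides. Members were found by symbol, in capital letters, in the expression table of each cell line, and all 43 were present among 16782 genes in A375 and 12711 genes in Yumm1.7. Polysome profiling separates mRNAs on a sucrose gradient by how many ribosomes they carry. The lines are the human melanoma line A375 and the mouse melanoma line Yumm1.7, each as drug-tolerant persister cells, which outlive a drug without being stably resistant, and as parental cells. The letters S and P label these states, but no label assigns a letter to persister or parental cells, so only the letters are used. No agent, dose or duration is named in the sources used here.

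For S and for P of both lines there was 1 library each of input (unfractionated RNA), monosomes (the peak of single ribosomes plus lighter fractions) and polysomes (the densest part of the gradient). The 12 libraries thus have no replicates, so there is no test, no p-value and no replicate error below, and the depth of each library is unknown. Levels are TPM, a read density per gene length that is relative within a library. Differences are of log2(TPM + 1), set relative to the median gene of the same comparison, and a difference of at least 2-fold was counted. A difference between 2 libraries comes out too small on this scale for genes with a low TPM, before the median gene is subtracted. A polysome-to-monosome ratio compared between S and P can come out too small or too large. All 43 members had the mean of 1 TPM needed to enter the comparisons in both lines, among 12638 genes in A375 and 10492 in Yumm1.7. Over their S libraries alone, 42 members reached that mean in A375 and 34 in Yumm1.7, so the rest entered only through their P levels.

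The median gene itself differed between S and P, by -0.20 in A375 input and -0.94 in Yumm1.7 input on the log2 scale as deposited. In Yumm1.7, 1581 genes stood at 0 in S input and 316 in P input, and 7 members are among the 1581. Of 6047 genes with at least 10 TPM in Yumm1.7 P input, 126 were at 0 in S input. Melanocyte markers summed to between 301 and 566 TPM in A375 S and between 143 and 377 TPM in A375 P (5 of 7 markers). In Yumm1.7 they summed to only 0.571 to 2.29 TPM in S and 5.09 to 7.09 TPM in P (3 of 7 markers), so the labelled cell type was not backed by these markers there. Fibroblast markers summed to between 114 and 223 TPM in Yumm1.7 S and between 7.35 and 23.6 TPM in Yumm1.7 P (5 of 6 markers, with COL1A1 at 0 in P input and P monosomes). In A375 they stayed at or below 1.26 TPM in S and 6.49 TPM in P (2 of 6 markers). In Yumm1.7 S input, COL1A2 (74.1 TPM) and DPT (35.2 TPM) made up most of the fibroblast sum. PDGFRA went the other way in input (0.218 TPM in S, 0.383 TPM in P) and in polysomes (0.253 TPM in S, 0.679 TPM in P). The fibroblast sum thus moves with every S against P difference of Yumm1.7 below, and its part in those differences was not tested. Of the markers of keratinocytes, leukocytes and endothelium, 1 each of the first and last list was analysed in A375 and 1 endothelial marker in Yumm1.7, and none exceeded 2.23 TPM in any library.

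DNA replication begins when the origin recognition complex, CDC6 and CDT1 load the MCM helicase onto chromatin as an inactive double ring. CDC45 and the GINS complex then turn each ring into a running helicase, and polymerase alpha with its primase starts each strand for the polymerases delta and epsilon. The PCNA clamp, loaded by the RFC complex, holds the polymerases on the template. Most of these genes are transcribed in cycling cells under the E2F transcription factors, and their mRNAs are low in cells that have left the cell cycle.

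In input RNA, the members were lower in S than in P in both lines. Every member had a lower TPM in S input than in P input, in A375 and in Yumm1.7 alike. Relative to the median gene, 39 of 43 members were at least 2-fold lower in A375 and none was 2-fold higher, where 16.2% of all genes tested were lower and 15.6% higher. In Yumm1.7, 39 of 43 were at least 2-fold lower and none higher, against 22.3% and 23.1% of all genes. The median of the members was -2.78 in A375 and -2.59 in Yumm1.7, and by construction that of all genes was 0. Without the 7 members listed at 0 in Yumm1.7 S input, the Yumm1.7 median was -2.61 and 33 of 36 members were lower. Of the 36, MCM4, POLE and CHAF1A had a mean below 1 TPM over their S libraries and passed the filter only through P. In both lines at once, 36 members were at least 2-fold lower, where 7.89% of the 8522 genes shared by symbol were, and no member was 2-fold higher in both, where 6.56% were. The 43 members together made up 0.0596% of the TPM total of 1000000 in A375 S input and 0.433% in A375 P input. In Yumm1.7 they took 0.0120% in S input and 0.205% in P input.

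**Figure D1:**
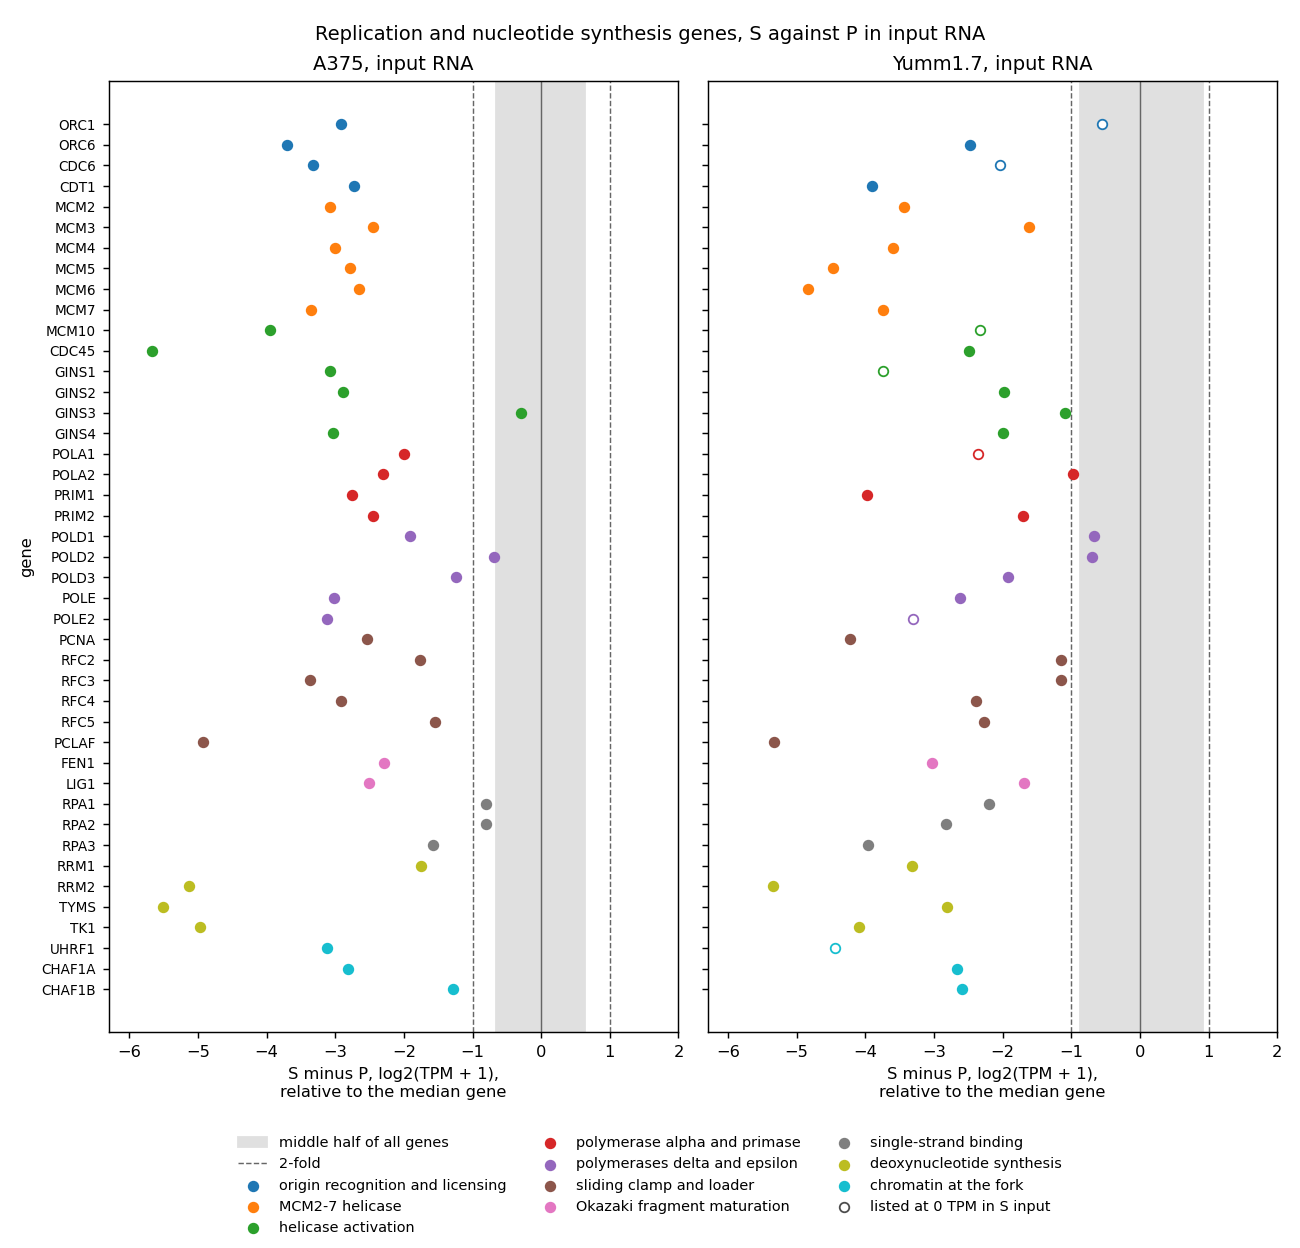
Difference between S and P in input RNA for each of the 43 genes, in log2(TPM + 1) relative to the median gene, with A375 on the left and Yumm1.7 on the right; 1 point is 1 gene, coloured by role, and open points are genes listed at 0 TPM in S input. All points lie below 0, and 39 of 43 in each line lie at or beyond the dashed 2-fold line at -1.

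In a bulk library, fewer cells that carry an mRNA and less of it per cell cannot be told apart. Members varied in the size of the input difference, and their order was only partly shared by the lines. Across the 43 genes, the A375 and Yumm1.7 input differences had a Pearson r of 0.42 and a Spearman rho of 0.37, as a description over genes whose values come from the same 4 libraries. The lowest in A375 were CDC45, TYMS, RRM2, TK1 and PCLAF, between -5.67 and -4.93. In Yumm1.7, RRM2, PCLAF, MCM6 and MCM5 lay between -5.35 and -4.47, below all other members that had a reading in S input. Among all genes tested, 6 members were within the 100 lowest in A375 and 10 in Yumm1.7. The members nearest to the 2-fold line were RPA1 (-0.81) and RPA2 (-0.80) just inside it and POLD3 (-1.24) just past it in A375, and POLA2 (-0.98) and GINS3 (-1.10) on either side of it in Yumm1.7.

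The promoters of the members are shown because the members stood low together. RefSeq windows of 300 bases (250 before and 50 after a start site, GRCh38.p14) were found for 37 human members in 49 windows. No window was matched for MCM4, MCM5, GINS4, POLD3, RPA2 and RPA3. The windows were searched on both strands for 4 forms of the E2F site, TTTGGCGC, TTTCCCGC, TTTCGCGC and TTTGCCGC, which can overlap each other where one lies on each strand. A form was found for 19 of 37 members, in 20 of 49 windows (40.8%), where 3.31% of all 35116 windows hold one and 5.09% of the windows of genes tested in A375 do. The CCAAT box was in 59.2% of the members' windows, 34.6% of all windows and 35.2% of the windows of genes tested in A375. TTTGAA, a letter string close to the element of many mitotic promoters, was in 2.04%, 15.2% and 10.5% of the same sets of windows. Only 1 member had it. A match is a string of letters and not a measured binding site. Sites spelled otherwise than the 4 E2F forms were not searched for, so a member without a match may still have an E2F site. The following windows, 5′ to 3′ on the gene's strand, have the E2F forms in capitals. MCM6 is the member with the most matches, PCLAF and PCNA have 1 each in the window shown, RRM2 has none and is among the lowest members in both lines, and GINS3 has 1 and is the highest member by input difference in A375.
MCM6, chr2:135876394-135876693, minus strand: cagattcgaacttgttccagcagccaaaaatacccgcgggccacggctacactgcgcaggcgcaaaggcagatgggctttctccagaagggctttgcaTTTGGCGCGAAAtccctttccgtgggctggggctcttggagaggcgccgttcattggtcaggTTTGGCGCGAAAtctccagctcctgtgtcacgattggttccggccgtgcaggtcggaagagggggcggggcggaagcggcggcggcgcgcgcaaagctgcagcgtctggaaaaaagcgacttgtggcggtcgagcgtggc
PCLAF, chr15:64381392-64381691, minus strand: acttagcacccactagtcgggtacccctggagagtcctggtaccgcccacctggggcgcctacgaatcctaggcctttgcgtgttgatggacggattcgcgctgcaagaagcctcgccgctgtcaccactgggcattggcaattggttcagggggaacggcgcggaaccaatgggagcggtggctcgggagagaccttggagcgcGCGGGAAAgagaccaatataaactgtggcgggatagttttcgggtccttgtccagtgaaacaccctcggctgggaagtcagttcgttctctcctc
PCNA, chr20:5126573-5126872, minus strand: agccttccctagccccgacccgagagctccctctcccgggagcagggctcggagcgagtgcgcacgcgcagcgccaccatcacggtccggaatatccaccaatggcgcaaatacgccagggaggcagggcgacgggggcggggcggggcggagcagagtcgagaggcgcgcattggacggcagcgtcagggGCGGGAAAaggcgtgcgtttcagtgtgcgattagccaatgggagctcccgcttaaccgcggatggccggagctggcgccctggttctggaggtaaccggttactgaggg
RRM2, chr2:10122489-10122788, plus strand: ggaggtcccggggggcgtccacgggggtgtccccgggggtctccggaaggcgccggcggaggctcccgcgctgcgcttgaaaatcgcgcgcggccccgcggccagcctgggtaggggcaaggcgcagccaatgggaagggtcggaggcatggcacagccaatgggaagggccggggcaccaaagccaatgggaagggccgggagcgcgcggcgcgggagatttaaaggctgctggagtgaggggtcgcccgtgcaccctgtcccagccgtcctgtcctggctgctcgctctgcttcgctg
GINS3, chr16:58392221-58392520, plus strand: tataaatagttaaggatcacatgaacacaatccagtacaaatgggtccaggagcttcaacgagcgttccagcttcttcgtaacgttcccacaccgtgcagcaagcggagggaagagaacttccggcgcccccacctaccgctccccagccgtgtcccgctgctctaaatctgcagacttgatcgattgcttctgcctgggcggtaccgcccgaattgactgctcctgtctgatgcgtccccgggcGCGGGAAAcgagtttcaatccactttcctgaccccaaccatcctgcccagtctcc
In MCM6, each capital run joins TTTGGCGC on the shown strand with TTTCGCGC on the other, the runs starting 152 and 90 bases before the start site. In PCLAF and PCNA, TTTCCCGC lies on the other strand, starting 45 and 59 bases before the start site, and in GINS3 5 bases before it. For the 19 members with a match, the median input difference was -3.01 (A375) and -2.81 (Yumm1.7). The 18 members without one had -2.60 and -2.43 and overlapped them widely, with ranges of -5.67 to -0.69 and -5.35 to -0.56, against -5.51 to -0.29 and -5.34 to -0.98. The mouse values are set beside human promoters here, since no mouse promoter was used.

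Licensing factors were low in S in both lines. Of the 4 members that mark and license origins, all 4 were at least 2-fold lower in A375 input and 3 in Yumm1.7 input. Below, sets of 3 values are input, monosome and polysome, in this order. CDT1, which brings the MCM helicase to origins, had 3.11, 3.22 and 4.58 TPM in S and 30.2, 20.3 and 50.5 TPM in P in A375. In Yumm1.7 it had 0.913, 2.97 and 0.445 TPM in S and 53.6, 19.8 and 75.3 TPM in P, and its input difference of -3.90 there was the lowest of the group. The libraries of S lay below those of P in each fraction, and in Yumm1.7 S the level was highest in monosomes. ORC1, the largest subunit of the origin recognition complex, had 0.921, 0.812 and 1.71 TPM in S and 15.7, 2.89 and 25 TPM in P in A375. In Yumm1.7 its level was low in all libraries, with 0, 0.263 and 0.117 TPM in S and 1.81, 0.965 and 4.14 TPM in P. It was listed at 0 in Yumm1.7 S input, and at so low a level in P the log2(TPM + 1) scale leaves little room for a 2-fold difference. ORC6, the smallest subunit, had 5.06 TPM in S and 89.8 TPM in P in A375 input. CDC6, the loader ATPase, had 3.38 TPM in S and 49.6 TPM in P in A375 input. In Yumm1.7 input ORC6 had 10.3 TPM in S and 119.6 TPM in P, and CDC6 was listed at 0 in S and had 6.85 TPM in P.

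All 6 subunits of the MCM2-7 helicase were at least 2-fold lower in S input in both lines. Their input differences spanned -3.35 to -2.45 in A375 and -4.84 to -1.62 in Yumm1.7. MCM6 had 6.25, 4.48 and 17.3 TPM in S and 51.3, 8.72 and 99.7 TPM in P in A375. In Yumm1.7 MCM6 had 0.197, 3.56 and 1.45 TPM in S and 64.7, 17.4 and 114 TPM in P, the lowest of the 6 in input. Its Yumm1.7 S level was higher in monosomes than in input or polysomes, whereas in P it was highest in polysomes. MCM3 differed least, with 28.8, 16.5 and 70.4 TPM in S and 185, 25.9 and 308 TPM in P in A375. Yumm1.7 cells had 10.7, 6.35 and 3.81 TPM in S and 68, 12 and 106 TPM in P. MCM3 was thus the most abundant subunit in S input of both lines. MCM7, whose gene also hosts microRNAs, had 24.7, 22.3 and 29.6 TPM in S and 299.7, 32.2 and 525 TPM in P in A375. Its Yumm1.7 levels were 1.56, 6.16 and 4.54 TPM in S and 64.9, 55.9 and 87.7 TPM in P. In A375 the monosome levels of MCM7 in S and P lay close together while its polysome levels lay far apart. The other 3 subunits had input levels of 10.1 TPM in S and 106 TPM in P (MCM2), 13.7 TPM in S and 134 TPM in P (MCM4) and 10.5 TPM in S and 89.9 TPM in P (MCM5) in A375. In Yumm1.7 input, MCM2 had 0.806 TPM in S and 36.5 TPM in P, MCM4 0.272 TPM in S and 28.6 TPM in P and MCM5 0.427 TPM in S and 59.4 TPM in P. The helicase holds 1 copy of each subunit, and the level of the highest subunit mRNA was 4.61 times that of the lowest in A375 S input and 5.84 times in A375 P input. In Yumm1.7 it was 54.6 times in S input and 2.38 times in P input, although the lowest subunit in that S library had only 0.197 TPM.

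The factors that activate the helicase included both the lowest and the highest member of A375. CDC45, which joins the MCM ring to form the running helicase, had 0.322, 4.17 and 2.68 TPM in S and 76, 11.5 and 139.5 TPM in P in A375. Its A375 input difference was -5.67, the lowest of all members. In Yumm1.7 it had 1.32, 1.26 and 1.87 TPM in S and 24, 8.9 and 49.7 TPM in P, and its input difference was -2.49. GINS3, a subunit of the GINS complex, had 13.3, 6.94 and 13.5 TPM in S and 19.1, 12.3 and 24.4 TPM in P in A375, where its input difference of -0.29 was the smallest of all members. In Yumm1.7, GINS3 had 2.92, 7.2 and 1.36 TPM in S and 15.1, 18.5 and 19.2 TPM in P and an input difference of -1.10. The other 3 GINS subunits were 2-fold lower in both lines, and GINS3 had the highest A375 S level of the 4 in each fraction. GINS1 was listed at 0 in Yumm1.7 S input and S monosomes and had 24.6 TPM in P input. GINS2 had 3.65 TPM in S and 38.7 TPM in P in A375 input and GINS4 2.1 TPM in S and 28 TPM in P. MCM10, which helps to activate the helicase, had 0.277 TPM in S and 21.7 TPM in P in A375 input, and in Yumm1.7 it was listed at 0 in S input and had 8.60 TPM in P input.

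Polymerase alpha and primase lay down the RNA and DNA primers. All 4 members were at least 2-fold lower in A375 input and 3 of 4 in Yumm1.7. PRIM1, the catalytic primase subunit, had 6.68, 4.54 and 9.78 TPM in S and 58.6, 13.2 and 97 TPM in P in A375. Its Yumm1.7 values were 0.444, 3.67 and 1.3 TPM in S and 42.7, 26.1 and 74.3 TPM in P. It was the lowest of the group in both lines by input difference. POLA2, the regulatory subunit of the polymerase, had 4.67, 2.94 and 7.59 TPM in S and 31, 5.16 and 49.9 TPM in P in A375. Its Yumm1.7 levels were 5.79, 5.95 and 4.48 TPM in S and 24.7, 9.85 and 46.9 TPM in P, with an input difference of -0.98 that just missed 2-fold. POLA1, the catalytic subunit, had 4.03 TPM in S and 22.1 TPM in P in A375 input and was listed at 0 in Yumm1.7 S input against 8.79 TPM in P input. PRIM2, the large primase subunit, had 1.89 TPM in S and 17.1 TPM in P in A375 input and 3.03 TPM in S and 24.2 TPM in P in Yumm1.7 input.

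Of the polymerases delta and epsilon, which copy the bulk of the lagging and leading strands, 4 of 5 members were at least 2-fold lower in A375 input and 3 of 5 in Yumm1.7. POLD2, an accessory subunit of polymerase delta, was the only one of the 43 members that was not 2-fold lower in input of either line, relative to the median gene. As deposited, all 43 members, POLD2 included, were at least 2-fold lower in Yumm1.7 input, while POLD2 was at -0.89 in A375 input. POLD2 had 98.5, 46.3 and 72.9 TPM in S and 184, 86.3 and 145 TPM in P in A375, and it was the most abundant of the 43 members in S input and S monosomes there. In Yumm1.7 it had 14.9, 8.85 and 23.6 TPM in S and 48.3, 14 and 78.2 TPM in P, again the highest member in S input. POLD1, the catalytic subunit of polymerase delta, had 10.4, 4.1 and 22.2 TPM in S and 47.9, 7.89 and 84.9 TPM in P in A375. In Yumm1.7 it had 9.96, 6.69 and 7.53 TPM in S and 32.4, 4.55 and 24.2 TPM in P, so that its TPM was higher in S than in P in monosomes and its input difference was -0.67. POLD3, a further accessory subunit, had 3.02, 2.85 and 4.52 TPM in S and 9.89, 3.83 and 12 TPM in P in A375. It had 0.650, 0.808 and 1.64 TPM in S and 10.9, 10.5 and 22.7 TPM in P in Yumm1.7. POLE2, of polymerase epsilon, had 1.19, 0.874 and 1.08 TPM in S and 20.9, 10.1 and 23.3 TPM in P in A375. In Yumm1.7 POLE2 was listed at 0 in S input, with 0.893 TPM in S monosomes and 0.888 TPM in S polysomes, against 17.9, 8.23 and 36.4 TPM in P. The catalytic subunit POLE was lower in S too, with 1.38 TPM in S and 21 TPM in P in A375 input and 0.197 TPM in S and 13.1 TPM in P in Yumm1.7 input. In S input of both lines, the epsilon subunits thus had the lowest TPM of the group and POLD2 the highest.

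The clamp, its loader and the clamp-binding protein PCLAF were lower in S in all 6 members of both lines in input. PCLAF, which binds PCNA at the fork, had 4.2, 15.7 and 2.68 TPM in S and 181, 106 and 124 TPM in P in A375. In Yumm1.7 PCLAF had 0.111, 5.28 and 1.48 TPM in S and 84.9, 92.9 and 172 TPM in P. It was among the lowest members of both lines, and in S of both lines its highest level was in monosomes. PCNA itself had 56.5, 41.9 and 149 TPM in S and 383, 56 and 766 TPM in P in A375, and its S polysome level was the highest of all members there. In Yumm1.7 PCNA had 7.68, 27.4 and 34.8 TPM in S and 309.6, 124 and 636 TPM in P. RFC2, a clamp loader subunit, differed least of the group in input on average over both lines, with 28, 16.7 and 39.4 TPM in S and 112, 41.8 and 161 TPM in P in A375. Its levels in Yumm1.7 were 6.5, 5.49 and 4.73 TPM in S and 30.8, 12.1 and 44.7 TPM in P. RFC5, another loader subunit, had 16.9, 5.57 and 23 TPM in S and 59.3, 23 and 111 TPM in P in A375. In Yumm1.7 it had 2.61, 16 and 2.52 TPM in S and 32.4, 34.2 and 45.1 TPM in P, and its S level was higher in monosomes than in input and polysomes. The loader subunit RFC3 had 9.34 TPM in S and 122 TPM in P in A375 input, and 7.51 TPM in S and 35.2 TPM in P in Yumm1.7 input. For RFC4, also of the loader, the input levels were 11.1 TPM in S and 104 TPM in P in A375, and 2.28 TPM in S and 31.7 TPM in P in Yumm1.7.

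Both genes of Okazaki fragment maturation were at least 2-fold lower in S input of both lines. FEN1, the flap endonuclease, had 40.03, 30.6 and 124 TPM in S and 229, 51.9 and 426 TPM in P in A375. In Yumm1.7 FEN1 had 2.44, 6.7 and 1.0 TPM in S and 52.6, 32.7 and 85.6 TPM in P. LIG1, the ligase that seals the fragments, had 3.45, 1.54 and 8.92 TPM in S and 28.1, 2.52 and 51.6 TPM in P in A375. In Yumm1.7 LIG1 had 3.36, 3.87 and 10.8 TPM in S and 25.9, 5.77 and 44.5 TPM in P. In Yumm1.7 polysomes, FEN1 differed by -3.90 and LIG1 by -0.42.

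The subunits of replication protein A, which coats single-stranded DNA in replication and in repair, had input differences between -1.57 and -0.80 in A375 and between -3.96 and -2.20 in Yumm1.7. In A375 input, RPA3 alone was at least 2-fold lower, and in Yumm1.7 input all 3 were. RPA1, the large subunit, had 29.3, 14.5 and 56 TPM in S and 59.8, 12.7 and 101 TPM in P in A375. In Yumm1.7 RPA1 had 0.922, 5.0 and 2.94 TPM in S and 15.9, 18.3 and 47.8 TPM in P. RPA2, the middle subunit, had 73, 44.7 and 109 TPM in S and 147, 59.3 and 234 TPM in P in A375. Its Yumm1.7 levels were 2.49, 4.3 and 4.68 TPM in S and 46.4, 21.3 and 76.9 TPM in P. RPA3, the small subunit, had 15.6, 10.5 and 14.4 TPM in S and 55.5, 18.3 and 38.2 TPM in P in A375. RPA3 had 1.83, 9.53 and 13 TPM in S and 83.5, 36.1 and 152 TPM in P in Yumm1.7. In A375 monosomes, RPA1 had a higher TPM in S than in P. Whether the A375 and Yumm1.7 differences differ beyond error could not be tested.

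The 4 enzymes of deoxynucleotide synthesis were at least 2-fold lower in S input of both lines, with a median of -5.05 in A375 and -3.71 in Yumm1.7. In both lines this was the lowest median of the 10 role groups, in Yumm1.7 just below the -3.68 of the MCM2-7 subunits. RRM2, the regulated small subunit of ribonucleotide reductase, had 4.29, 11.5 and 6.33 TPM in S and 212, 104 and 363 TPM in P in A375. In Yumm1.7 RRM2 had 0.733, 9.32 and 1.1 TPM in S and 134, 113 and 244 TPM in P, and it was the lowest member of that line in input and polysomes. RRM1, the large subunit of the same enzyme, differed less, with 15.9, 13.5 and 41.3 TPM in S and 64.3, 12.6 and 102 TPM in P in A375. Its Yumm1.7 levels were 1.73, 4.07 and 3.5 TPM in S and 51.4, 22.4 and 78.3 TPM in P. In input of A375, RRM1 thus exceeded RRM2 in S, while RRM2 exceeded RRM1 in P, and the same held in Yumm1.7. TYMS, which makes thymidylate, had 9.14, 26.7 and 19.8 TPM in S and 530.5, 100.2 and 836 TPM in P in A375 and was the most abundant member in P input and P polysomes there. In Yumm1.7 TYMS had 2.83, 10.4 and 11.7 TPM in S and 50.4, 31.3 and 66.8 TPM in P. TK1, the thymidine salvage kinase, had 6.08, 19.4 and 11.2 TPM in S and 253, 54 and 470.2 TPM in P in A375. In Yumm1.7 TK1 had 2.39, 10.2 and 2.15 TPM in S and 109, 47.4 and 182 TPM in P. All of RRM2, TYMS and TK1 had a higher TPM in monosomes than in input or polysomes in A375 S, and in P of both lines each was highest in polysomes.

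The chromatin factors that act behind the fork were lower in S input in all 3 members of both lines. UHRF1, which recruits the maintenance DNA methyltransferase, had 4.54, 2.88 and 5.28 TPM in S and 54, 20.3 and 87.7 TPM in P in A375. In Yumm1.7 UHRF1 was listed at 0 in S input, with 3.03 TPM in S monosomes and 0.495 TPM in S polysomes, against 40.8, 24.4 and 66.7 TPM in P. CHAF1B, a subunit of the histone chaperone CAF-1, had 3.93, 1.72 and 4.4 TPM in S and 12.8, 4.68 and 18.4 TPM in P in A375. In Yumm1.7 CHAF1B had 1.52, 4.43 and 3.85 TPM in S and 28.1, 9.88 and 42.4 TPM in P. CHAF1A, the large subunit of CAF-1, had 4.97 TPM in S and 46.9 TPM in P in A375 input and 0.366 TPM in S and 15.6 TPM in P in Yumm1.7 input.

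Other replication factors outside the list were mostly lower in S input as well. In A375, 26 of 35 were at least 2-fold lower and 2 higher, with a median of -1.67, against 16.2% lower and 15.6% higher of all genes. In Yumm1.7, 21 of 33 tested were lower and 1 higher, with a median of -1.32, against 22.3% and 23.1% of all genes. ASF1B, a histone chaperone, had 3.42 TPM in S input and 80.3 TPM in P input of A375, and was listed at 0 in Yumm1.7 S input against 35.7 TPM in P input. TIPIN, of the fork protection complex, had 3.51 TPM in S and 28.4 TPM in P in A375 input, and 0.871 TPM in S and 102 TPM in P in Yumm1.7 input. At the other end stood POLD4, the small subunit of polymerase delta, with 220.5 TPM in S and 52.1 TPM in P in A375 input. RNASEH2C, a subunit of ribonuclease H2, had 121 TPM in S and 86.0 TPM in P in Yumm1.7 input. The Yumm1.7 input difference of POLD4 was -0.20.

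Genes of deoxynucleotide supply outside the list were less uniform, with 3 of 14 at least 2-fold lower in A375 input, a share near the 16.2% of all genes. In Yumm1.7 input 8 of 14 were lower and 1 higher, against 22.3% and 23.1% of all genes. Their medians were -0.47 and -1.20. SHMT1, a folate enzyme, had 27.96 TPM in S and 49.97 TPM in P in A375 input and was listed at 0 in Yumm1.7 S input. The deoxynucleotide hydrolase SAMHD1 had input differences of 0.93 in A375 and 0.33 in Yumm1.7. Those of the mitochondrial kinase DGUOK were 0.36 in A375 and 0.30 in Yumm1.7. Of the genes of purine and pyrimidine synthesis, 12 of 17 were at least 2-fold lower in A375 input and 8 of 15 in Yumm1.7 input, and none was higher (medians -1.22 and -1.17), beside the same shares of all genes. PAICS, of purine synthesis, had 34.5 TPM in S and 312 TPM in P in A375 input and 34.5 TPM in S and 177 TPM in P in Yumm1.7 input. CAD, which starts pyrimidine synthesis, had input differences of -1.22 in A375 and -2.65 in Yumm1.7. PRPS2, which makes the ribose phosphate donor, had -1.16 in A375 and -0.02 in Yumm1.7. For the CTP synthase CTPS2 the values were -0.09 and 0.20.

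Beside the members' medians, 30 mitosis genes had input medians of -4.50 (A375) and -3.81 (Yumm1.7). Genes of homologous recombination and the Fanconi pathway had medians of -1.87 (A375, 30 genes) and -0.85 (Yumm1.7, 29 genes). The difference between the lists could not be tested with 1 library per group.

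The 3 fractions gave differences of unequal size. In monosomes, 27 of 43 members were at least 2-fold lower in A375 S and 31 in Yumm1.7 S and none was higher, against 13.2% lower and 11.7% higher of all genes in A375 and 24% lower and 25.4% higher in Yumm1.7. In polysomes, 39 members were lower in A375 and 37 in Yumm1.7 and none higher, against 15.6% lower and 16.5% higher, and 22.5% lower and 24.1% higher, of all genes. The medians were -1.28 in monosomes and -2.77 in polysomes of A375, and -1.59 and -2.25 in Yumm1.7. All 43 members had a lower TPM in S than in P in polysomes of both lines. In monosomes RPA1 and RRM1 in A375 and POLD1 in Yumm1.7 had a higher TPM in S. By role, all 4 licensing factors, all 3 chromatin factors and 5 of 6 helicase activators were at least 2-fold lower in A375 monosomes, with medians of -2.07, -1.30 and -1.65. None of the Okazaki fragment and replication protein A genes was, with medians of -0.65 and -0.44. In A375 polysomes the deoxynucleotide enzymes had the lowest median of the role groups, -5.09, and replication protein A the highest, -0.88. In Yumm1.7 polysomes the lowest median was again that of the deoxynucleotide enzymes, -3.47, and the highest that of the polymerases delta and epsilon, -1.52. At least 2-fold lower in all of input, monosomes and polysomes were 27 members in A375 and 30 in Yumm1.7, against 6.33% and 11.7% of all genes. The Yumm1.7 counts of lower members in this paragraph include CDC6, MCM4, MCM10, GINS1, POLA1, POLE, POLE2 and CHAF1A. These had a mean below 1 TPM over their Yumm1.7 S libraries and passed the filter only through P.

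**Figure D2:**
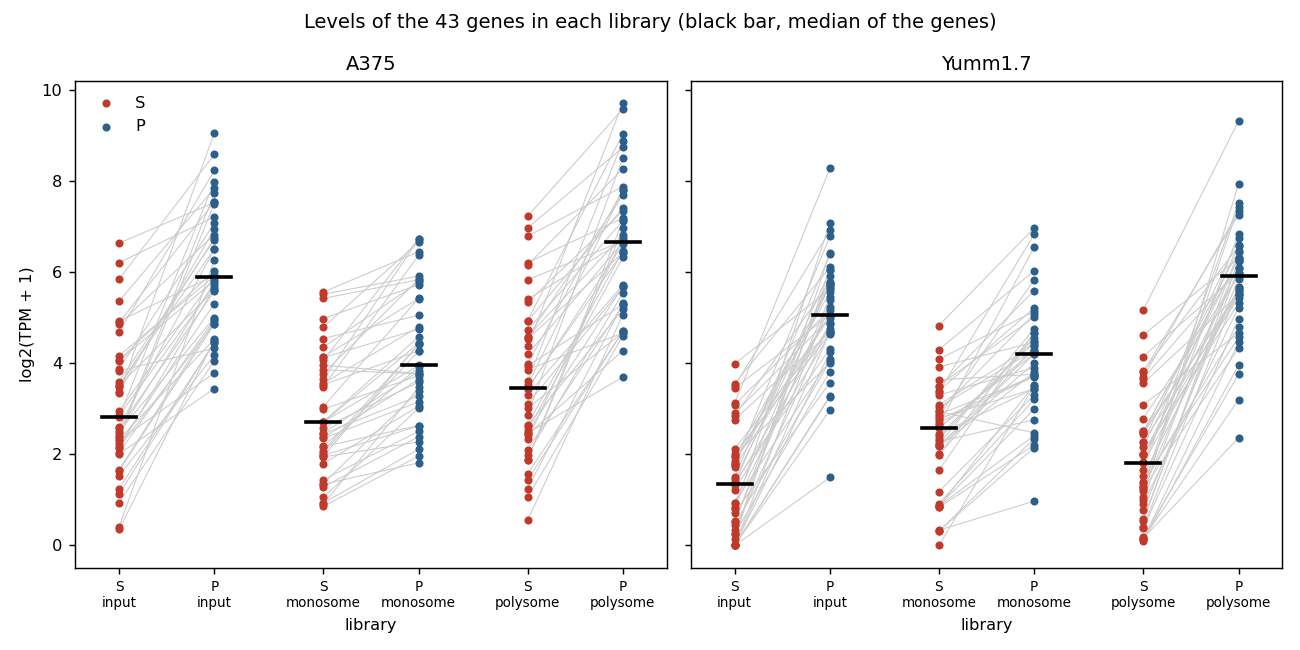
Level of each of the 43 genes as log2(TPM + 1) in the 6 libraries of A375 (left) and Yumm1.7 (right), S in red and P in blue; 1 point is 1 gene, grey lines join the same gene and black bars are medians over genes. In each fraction the S median lies below the P median, and the gap is smallest in monosomes.

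The difference was less low in monosomes than in input for 40 members in A375 and 42 in Yumm1.7. The exceptions were GINS3, POLD2 and RFC5 in A375 and POLD3 in Yumm1.7. Of the other genes that were at least 2-fold lower in input, 83.2% in A375 and 65.7% in Yumm1.7 also differed less, or upward, in monosomes. Those other genes were chosen by their input difference, so the shares are a description. Polysome differences were less low than input differences for 20 of 43 members in A375 and 29 in Yumm1.7, against 64.2% (A375) and 66% (Yumm1.7) of the same other genes. The mitochondrially encoded RNAs made up 35% of TPM in monosomes of A375 S and 28.2% in those of A375 P, against 9.15% and 2.23% in polysomes. In Yumm1.7 they made up 21.5% in S and 16.1% in P monosomes, 19.4% in S and 1.90% in P polysomes, and 19.1% in S and 9.86% in P input. They thus move with the fraction and ratio differences of both lines, and their part in those values was not tested.

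**Figure D3:**
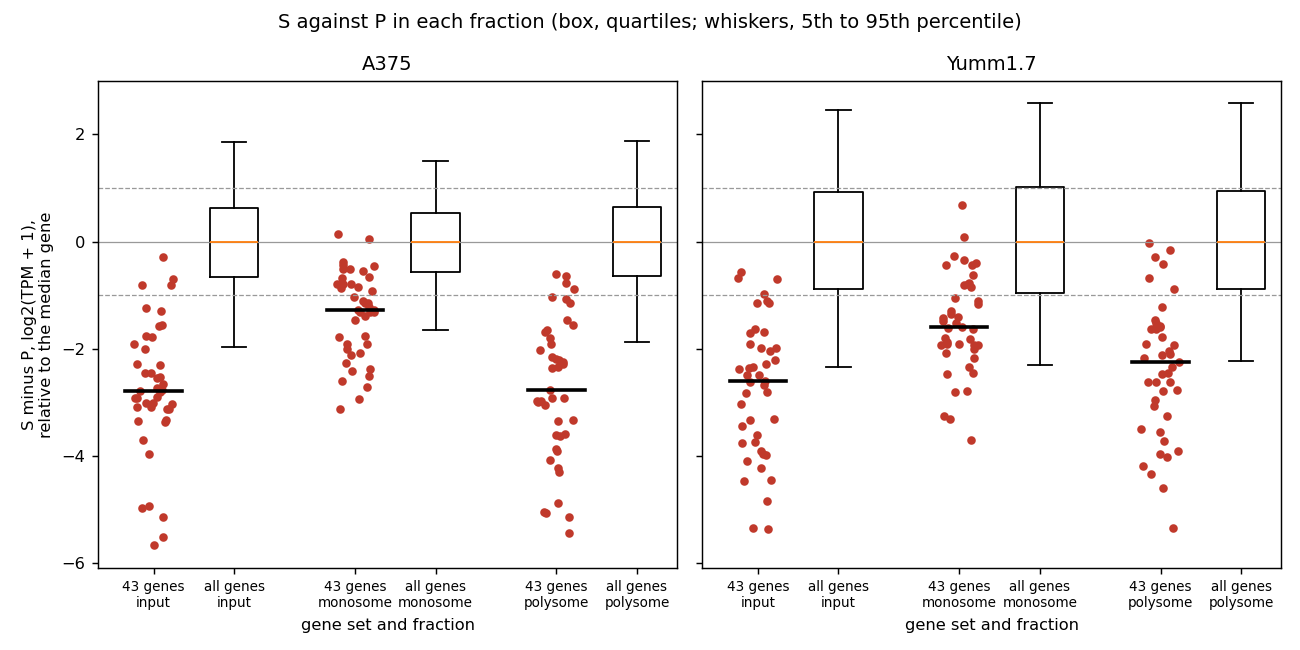
Difference between S and P in log2(TPM + 1) relative to the median gene, for the 43 genes (red points, black bar at their median) and for all genes tested (box of quartiles with the median as a line, whiskers at the percentiles named in the title) in input, monosomes and polysomes of A375 (left) and Yumm1.7 (right). The members' medians lie at -2.78, -1.28 and -2.77 in A375 and at -2.59, -1.59 and -2.25 in Yumm1.7.

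Polysome and monosome libraries were then compared within each state. In S of A375, 10 members were at least 2-fold more polysomal than the median gene and 9 less, with a median of 0.03, where 20.8% of all genes were more and 16.7% less polysomal. In P of A375, 25 were more polysomal and none less, with a median of 1.28, against 19.1% and 20.8% of all genes. In Yumm1.7 S, 4 were more and 5 less polysomal (median 0.12), against 13.2% and 10.9% of all genes. Of these 4, GINS1 was listed at 0 in S monosomes. In Yumm1.7 P, 19 were more and none less polysomal (median 0.89), against 14% and 13.4% of all genes. In S, 34 members in A375 and 11 in Yumm1.7 had a higher TPM in polysomes than in monosomes, and in P all 43 did in both lines. Of all genes tested, 72.7% in A375 S, 28.8% in Yumm1.7 S, 80.4% in A375 P and 84.3% in Yumm1.7 P did so, and the median gene was at 0.67, -0.46, 1.05 and 0.91 on the log2 scale as deposited, in this order. In the scale as deposited, the split was 17 more and 1 less polysomal in A375 S and 40 more and none less in A375 P. In Yumm1.7 it was 2 more and 10 less in S and 36 more and none less in P.

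Most members were relatively less polysomal in S than in P of A375. The polysome-to-monosome ratio was at least 2-fold lower in S for 28 of 43 members in A375 and none was higher, against 7.88% and 13.1% of all genes, with a median of -1.20. In Yumm1.7, 13 of 43 were lower and none higher, against 12.6% and 17.3% of all genes, with a median of -0.59. In both lines at once 10 members were lower and none higher, against 1.61% and 2.25% of shared genes. MCM10 and CHAF1A are among the 13 and among the 10. Both had a mean below 1 TPM over their Yumm1.7 S libraries and passed the filter only through P. As deposited, without reference to the median gene, 33 members were lower in A375 and 41 in Yumm1.7. With a pseudocount of 0.1 TPM, relative to the median gene, the medians were -1.05 in A375 and -0.55 in Yumm1.7. The S and P ratios use the same libraries as the fraction differences above and so are no separate evidence for them.

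**Figure D4:**
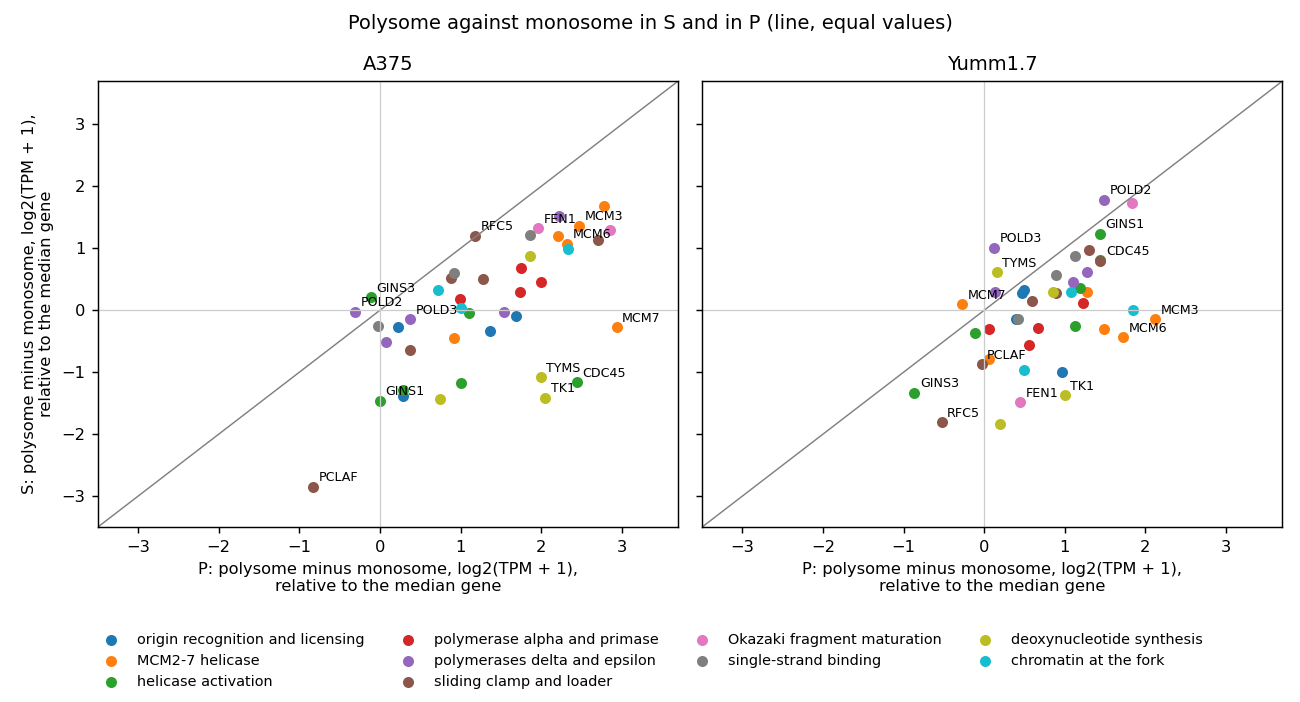
Polysome minus monosome level in S (vertical) against P (horizontal), in log2(TPM + 1) relative to the median gene, for the 43 genes of A375 (left) and Yumm1.7 (right), coloured by role; the diagonal marks equal values. In A375, 40 of 43 points lie below the diagonal, and in Yumm1.7 38 of 43 do.

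The members whose ratio differed most in A375 were CDC45 (-3.69), TK1 (-3.55) and MCM7 (-3.30), all lower in S. Of these, CDC45 had 2.68 TPM in polysomes and 4.17 TPM in monosomes in S, against 139.5 and 11.5 TPM in P. TK1 had 11.2 TPM in polysomes and 19.4 TPM in monosomes in S, against 470.2 and 54.0 TPM in P. At the other end of A375 were GINS3 (0.23), POLD2 (0.20) and RFC5 (-0.07), all close to the median gene. In Yumm1.7 the lowest were TK1 (-2.33), MCM3 (-2.23) and MCM6 (-2.11), and the highest POLD3 (0.93), TYMS (0.51) and MCM7 (0.41). These values are relative to the median gene, whose ratio difference in Yumm1.7 was -1.42 as deposited. The values above 0 thus do not mean a higher ratio in S as deposited, where no member was 2-fold higher. TK1 was thus among the 3 lowest in both lines, while MCM7 was among the 3 lowest in A375 and the 3 highest in Yumm1.7. Across the 43 members the ratio differences of the lines had a Pearson r of 0.05 and a Spearman rho of 0.01.

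By role, all 6 MCM2-7 subunits and all 4 deoxynucleotide enzymes had a ratio at least 2-fold lower in S of A375, with medians of -1.27 and -2.72, and none of the replication protein A genes did (median -0.40). In Yumm1.7, 3 of 6 MCM2-7 subunits and 2 of 4 deoxynucleotide enzymes did, with medians of -1.34 and -1.25. None of the 5 polymerase delta and epsilon subunits did there, and their median was 0.20. Within a state, the MCM2-7 subunits of A375 had a median polysome-to-monosome value of 1.14 in S and 2.40 in P, and the Okazaki fragment genes 1.31 in S and 2.41 in P. The helicase activators had -1.16 in S and 0.64 in P, and the deoxynucleotide enzymes -1.25 in S and 1.93 in P. For the same groups in Yumm1.7, the MCM2-7 subunits had -0.23 in S and 1.38 in P, and the deoxynucleotide enzymes -0.54 in S and 0.52 in P. Several of these S levels are only a few TPM, so the ratios of single genes are coarse.

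Overlaps of the human genes were looked up in GENCODE release 29, which need not be the annotation behind the TPM values. In that release, 11 members share exon bases with a listed gene on the other strand, TYMS with ENOSF1 and MCM7 with AP4M1 among them. Named pseudogenes exist for 8 members, PCNA and RRM2 among them. No source used here states the strand setting of the quantification, so reads of such overlapping pairs may have been split between them. PRIM1 with NACA, FEN1 with FADS2 and CHAF1B with MORC3 share exon bases on the same strand, where no strand setting separates the reads.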

How the data were processed

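RNA from input, monosome and polysome fractions was sequenced in 12 libraries, with poly-T selection of mRNA per the labels' protocols. The values used are TPM (read density per gene length, relative within a library) that the authors deposited as 1 table per cell line. The builds GRCh38 (hg38) and GRCm38 (mm10) are named per the submitters' processing notes. Aligner, quantifier, strand use and annotation: not given in the sources used here. Listed genes had a mean of 0.100 TPM or more in either table. They did not hold the full TPM total of any library. Their sums ran from 665952 (P monosomes) to 901482 TPM (S polysomes) in A375. In Yumm1.7 the sums ran from 844785 (S polysomes) to 943890 TPM (P polysomes). The unlisted part thus differs by library, and its effect on the comparisons was not tested. TPM keeps no depth, so the depth is unknown and no counting interval is given.

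Columns were assigned to samples by name. Genes were kept at a line's mean of 1 TPM or more, and differences of log2(TPM + 1) were taken, S minus P or polysome minus monosome. The median over all genes kept was subtracted. A gene was counted at 2-fold or more. Each state of each line has 1 library per fraction, so no test was made, and labels give no separate cultures. The calculation was tested on simulated data. Alternatives were a pseudocount of 0.1 TPM, no filter, a filter at 5 TPM, values as deposited, and leaving out members listed at 0. All members may be named. Values in all libraries are given for the lowest and highest member of each role group, for members not 2-fold lower in input and for the 3 highest and 3 lowest ratio differences per line, and input values or differences for the 2 highest and 2 lowest genes with at least 5 TPM of each other pathway list. A gene that this rule names is not reported here. The members and lists were chosen with earlier results of these data known. Promoter windows come from RefSeq (GRCh38.p14). Python 3.11.15, pandas 2.3.3, numpy 2.4.6 and matplotlib 3.10.9 were used.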

Additional observations from a re-analysis of the deposited data

Results flagged for a closer look

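In each case below 2 groups lay at least 2-fold from the median gene on opposite sides in polysome against monosome libraries, on the log2(TPM + 1) scale, with 1 library per fraction and state, so the difference was not tested. Members listed at 0 in a library were left out. Each difference below is between 2 values that were each set relative to their own median gene. It therefore departs slightly from the ratio differences above, which were set relative to the median gene of the ratio itself. RFC5 was at 1.20 in A375 S and -1.81 in Yumm1.7 S, a difference of 3.01. FEN1 was at 1.32 in A375 S and -1.48 in Yumm1.7 S, a difference of 2.80. Between the states of A375, CDC45 was at -1.16 in S and 2.44 in P, a difference of -3.60. TYMS was at -1.08 in A375 S and 2.0 in A375 P, a difference of -3.08. TK1 was at -1.41 in A375 S and 2.05 in A375 P, a difference of -3.46. TK1 differed the same way in Yumm1.7, at -1.37 in S and 1.0 in P, a difference of -2.37.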

How the results depend on the processing

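Of 120 counts of members recomputed under 5 settings, 104 stayed within 1.5 times the reported count and 16 moved. The 104 include counts of 0 that stayed at 0 and counts that a setting could not change, so they overstate the stability of the other counts. No median of 2-fold or more changed sign. The medians near 0 of polysomes against monosomes in S did: in A375 S it was -0.19 with a filter at 5 TPM (0.03 reported), and in Yumm1.7 S -0.05 with a pseudocount of 0.1 TPM and -0.34 as deposited (0.12 reported), so no direction is given for these. The 16 are in the polysome against monosome comparisons and the ratio, and the counts of members lower in S input, monosomes and polysomes moved under none of the 5 settings. With no filter, 5 members were less polysomal in A375 S, where 9 are reported. With a filter at 5 TPM, 5 were more polysomal in A375 S (10 reported), 1 was less polysomal in A375 P and 1 in Yumm1.7 P (0 reported each), and 1 had a higher ratio in Yumm1.7 S than in P (0 reported). With a pseudocount of 0.1 TPM, 1 was less polysomal in A375 P, 11 less and 7 more in Yumm1.7 S (5 and 4 reported), and 2 had a higher ratio in Yumm1.7 S. As deposited, A375 had 1 less and 17 more polysomal in S and 40 more in P, Yumm1.7 had 10 less and 2 more in S and 36 more in P, and 41 ratios were lower in Yumm1.7 S. The filters change which genes set the median gene. All 43 members entered under them except with 5 TPM in Yumm1.7, where 40 did. The cause of the moves was not tested. Leaving out members listed at 0, added after seeing the data, moved no count past 1.5 times. Members were listed at 0 only in Yumm1.7 S input and S monosomes, so this setting could not change any other count. No paired analysis was possible because each group has 1 library, and for the same reason no library could be left out. Depth is unknown, and levels under a few TPM carry the ratios of many members in Yumm1.7 S.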
